A study of Mus musculus with 7 samples.

Results

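Microglia and macrophage genes were examined in GFP-sorted cells of embryonic mouse cortex after knockdown of Trnp1, a nuclear protein of cortical progenitors. The group holds 33 genes listed by name, each measured by a single probe set that the array annotation gives exactly 1 gene symbol, out of 19938 genes measured in this way. They were divided by role into 7 microglial genes, 6 genes of border macrophages (the macrophages of the meninges and perivascular spaces) and 20 genes that both cell types share. RNA from 3 Trnp1 knockdown and 4 control samples, all C57BL/6 cortex of undetermined sex, was hybridised to 1 Affymetrix array each. In both groups cortices had been electroporated on embryonic day 13 with constructs that carry GFP, and GFP-positive cells were sorted 24 h later, on embryonic day 14. The labels give the control genotype as WT and name neither the control construct nor how many embryos each biological replicate holds, so p-values measure the spread between these samples.

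Microglia are the resident macrophages of the brain. They descend from yolk sac progenitors, enter the brain early in gestation and depend on the growth factor receptor Csf1r and the transcription factor PU.1, which is encoded by Spi1. Radial glia and neurons arise instead from the neural tube, and plasmids electroporated into the ventricle mainly enter the progenitors that line it. Border macrophages share most of the myeloid programme with microglia, and several of their genes, such as Mrc1, Pf4 and Ms4a7, are also found in young microglia.

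The sorted cells carried the neural genes their label implies: all 10 radial glia markers and all 10 neuron and intermediate progenitor markers had a mean signal above background. Background was gauged from 1027 olfactory receptor genes, whose transcripts are not expected in cortex, as the 95th percentile of their means, a log2 level of 3.87. Trnp1 itself had log2 levels of 4.80, 4.85 and 4.55 in knockdown samples, against 5.07, 4.999, 5.24 and 5.22 in control samples. Its difference was -0.40 (95% interval -0.69 to -0.11, exact two-sided permutation p = 0.0286, the smallest that the 35 splits allow), and its limma adjusted p over all genes was 0.825. Knockdown replicate 2 and control replicate 4 stood apart from the other arrays in myeloid genes, and the results below are therefore also given without these arrays.

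Myeloid transcripts were present in the RNA of the sorted samples, although the sort selected electroporated cells. Which cells they came from was not tested. Of the 33 genes, 32 had a mean level above the background, a share of 96.97% where 67.6% of all genes did. The exception was the microglial receptor gene Gpr34, with a mean of 3.65. Its level was 3.42, 3.38 and 3.42 in knockdown samples, against 3.70, 3.20, 3.10 and 5.36 in control samples, so that it stood above background in control replicate 4 only. A level on this scale depends on the probes, and the genes are therefore not ranked against each other. In sorted bulk samples, fewer macrophages and less RNA per macrophage cannot be told apart.

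Most receptors by which microglia are fed and guided varied more among control arrays than among knockdown arrays. The SD of Cx3cr1 was 0.41 in knockdown samples and 1.69 in control samples (n = 3 and 4), whereas that of P2ry12 was 0.52 in knockdown samples and 0.41 in control samples. Csf1r (Entrez 12978), the receptor for the survival factors CSF1 and IL-34, had log2 levels of 7.21, 8.26 and 7.11 in knockdown samples, against 8.32, 5.79, 5.85 and 9.21 in control samples. The knockdown samples lay inside the range of the controls, whose highest and lowest arrays differed 10.7-fold. Cx3cr1 (Entrez 13051), the receptor for the neuronal chemokine fractalkine, had 7.71, 8.53 and 8.11 in knockdown samples, against 7.61, 6.24, 6.92 and 10.12 in control samples. Here too all knockdown arrays fell between the controls, and control replicate 4 was 14.7-fold above control replicate 2. P2ry12 (Entrez 70839), the ADP receptor that directs microglial processes towards damage, had 4.62, 5.36 and 4.36 in knockdown samples, against 4.40, 4.15, 4.73 and 5.09 in control samples. It was dim and changed least between arrays of all 33 genes, with a 2.31-fold range. The UDP receptor P2ry6, a trigger of phagocytosis, spanned the widest range of the group, 25.04-fold, from 5.91 to 7.51 in knockdown samples and from 4.55 to 9.20 in control samples. Selplg, which encodes the selectin ligand PSGL-1, lay between 5.03 and 5.47 in knockdown samples and at 5.11, 5.03, 4.91 and 7.39 in control samples.

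**Figure D1:**
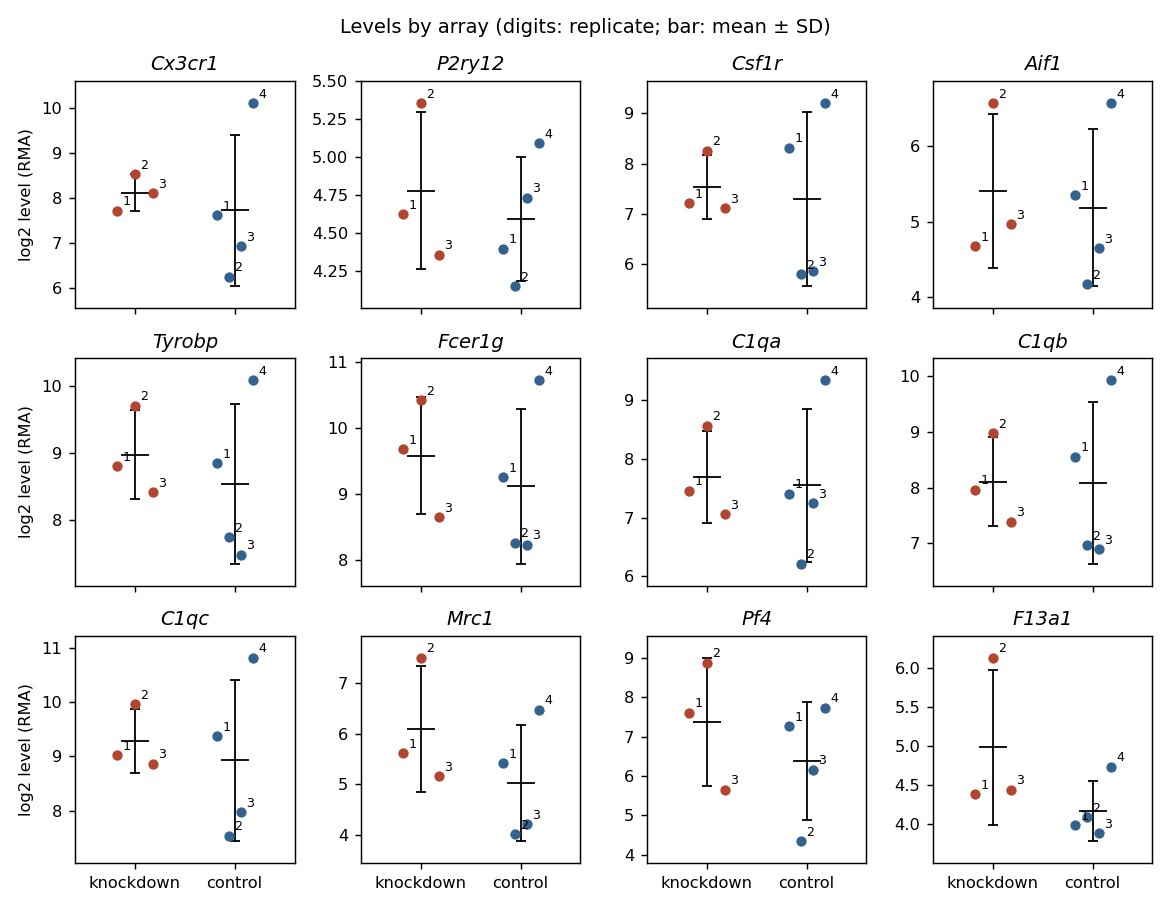
Log2 level (RMA) of 12 genes in the 3 knockdown and 4 control arrays. Points are arrays, digits are replicate numbers and bars are the mean ± SD of a group. For Cx3cr1 and Csf1r the knockdown arrays lie inside the control range, and control replicate 4 is the highest control for each of the 12 genes.

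Adaptors and immune receptors followed the same arrays. Tyrobp (Entrez 22177), which encodes the adaptor DAP12 that signals for Trem2, had 8.81, 9.70 and 8.41 in knockdown samples, against 8.85, 7.75, 7.49 and 10.08 in control samples. Fcer1g (Entrez 14127), the common gamma chain of Fc receptors, had 9.68, 10.42 and 8.65 in knockdown samples, against 9.25, 8.26, 8.24 and 10.72 in control samples. For both adaptors, knockdown replicate 2 was the highest knockdown array and control replicate 4 the highest control, and the groups overlapped. Trem2, a lipid-sensing receptor, averaged 6.47 ± 0.56 (SD, n = 3) in knockdown samples and 6.19 ± 1.17 (SD, n = 4) in control samples. The Fc receptor gene Fcgr3, which resembles other Fc receptor genes, ranged from 6.30 to 7.63 in knockdown samples and from 4.99 to 8.16 in control samples. Its relative Fcrls, a gene typical of mouse microglia, ranged from 7.47 to 8.64 in knockdown samples and from 5.54 to 9.70 in control samples. The lipopolysaccharide co-receptor gene Cd14 spanned 21.96-fold over the arrays. Its level was 5.43, 7.79 and 5.38 in knockdown samples, against 7.12, 3.33, 3.53 and 6.70 in control samples, where replicates 2 and 3 were at background. The inhibitory sialic acid receptor gene Cd33, the Toll-like co-receptor gene Ly86 and the pan-leukocyte phosphatase gene Ptprc (CD45) differed less, with fold ranges of 3.78, 8.97 and 4.04 over the arrays.

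The 3 chains of C1q, the complement component that tags synapses and debris for uptake, varied together from array to array. C1qa (Entrez 12259) had 7.46, 8.56 and 7.06 in knockdown samples, against 7.40, 6.22, 7.24 and 9.33 in control samples. C1qb (Entrez 12260) had 7.96, 8.98 and 7.39 in knockdown samples, against 8.56, 6.96, 6.89 and 9.92 in control samples. C1qc (Entrez 12262) had 9.02, 9.96 and 8.86 in knockdown samples, against 9.37, 7.54, 7.97 and 10.82 in control samples. All 3 chains were highest in control replicate 4 and, among knockdown samples, in replicate 2. The genes lie next to each other on chromosome 4, in the order C1qb, C1qc and C1qa among protein-coding genes of GRCm38.p6. The mean of C1qb was nearly equal in the groups, at 8.11 ± 0.80 (SD, n = 3) in knockdown samples and 8.08 ± 1.44 (SD, n = 4) in control samples.

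Lysosomal and cytoskeletal genes of macrophages showed the same spread. Laptm5, a lysosomal membrane protein of blood cells, ranged from 8.99 to 10.32 in knockdown samples and from 7.56 to 11.31 in control samples. The scavenger-like glycoprotein gene Cd68 ranged from 6.85 to 8.27 in knockdown samples and from 5.997 to 9.69 in control samples. Both were highest in control replicate 4. Ctss, which encodes the protease cathepsin S, averaged 8.64 ± 0.54 (SD, n = 3) in knockdown samples and 7.98 ± 1.33 (SD, n = 4) in control samples. Lyz2, a lysozyme gene whose probes may also read its near-identical copy Lyz1, had 7.61, 9.18 and 5.58 in knockdown samples, against 7.12, 4.54, 6.07 and 8.12 in control samples. It was highest in knockdown replicate 2, with a 24.97-fold range over the arrays. Aif1 (Entrez 11629), which encodes the microglial stain IBA1, had 4.67, 6.58 and 4.97 in knockdown samples, against 5.35, 4.17, 4.65 and 6.57 in control samples. Its highest knockdown and control arrays were nearly equal. Coro1a, an actin regulator of leukocytes, averaged 6.87 ± 0.52 (SD, n = 3) in knockdown samples and 6.89 ± 1.12 (SD, n = 4) in control samples, and the tetraspanin gene Cd53 averaged 6.85 ± 1.71 (SD, n = 3) in knockdown samples and 6.79 ± 1.72 (SD, n = 4) in control samples.

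Of the 6 border macrophage genes, 4 were highest in knockdown replicate 2. Mrc1 (Entrez 17533), the mannose receptor CD206, had log2 levels of 5.61, 7.50 and 5.15 in knockdown samples, against 5.41, 4.00, 4.20 and 6.47 in control samples. Pf4 (Entrez 56744), a chemokine of platelets and border macrophages, had 7.61, 8.88 and 5.66 in knockdown samples, against 7.27, 4.35, 6.16 and 7.74 in control samples. In both genes knockdown replicate 2 exceeded every other array while the groups overlapped. The hyaluronan receptor gene Lyve1 had 4.33, 6.97 and 4.75 in knockdown samples, against 4.63, 4.80, 4.39 and 5.01 in control samples. F13a1, the coagulation factor XIII A chain, had 4.38, 6.13 and 4.44 in knockdown samples, against 3.99, 4.09, 3.89 and 4.74 in control samples. For Lyve1, knockdown replicate 2 was above every control, knockdown replicate 3 lay among the controls and knockdown replicate 1 was the lowest of all 7 arrays. The scavenger receptor gene Stab1 was highest in a control instead, with 6.56, 6.68 and 5.61 in knockdown samples, against 5.36, 4.74, 4.87 and 7.06 in control samples. Ms4a7, a membrane protein of tissue macrophages, had 3.53, 5.26 and 4.17 in knockdown samples, against 5.78, 3.99, 4.19 and 4.86 in control samples, with its highest value in control replicate 1.

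The arrays in which the genes were high were largely the same from gene to gene. Knockdown replicate 2 was the highest knockdown array for 31 of the 33 genes, where this held for 32.9% of all genes. The exceptions were Gpr34 and Cd33, and for Cd33 knockdown replicates 1 and 2 tied at 4.604, counted for replicate 1. Control replicate 4 was the highest control array for 31 of the 33 (Ms4a7 and Cd14 were the exceptions), where this held for 24.2% of all genes. These arrays together took the highest and second highest place among all 7 for 27 of the 33 genes (81.8%, against 5.46% of all genes). Control replicates 2 and 3 together were the lowest and second lowest for 22 genes (66.7%, against 5.67% of all genes). The arrays were singled out after their values were seen, and the genes share the same 7 RNA samples, so these counts are a description.

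**Figure D2:**
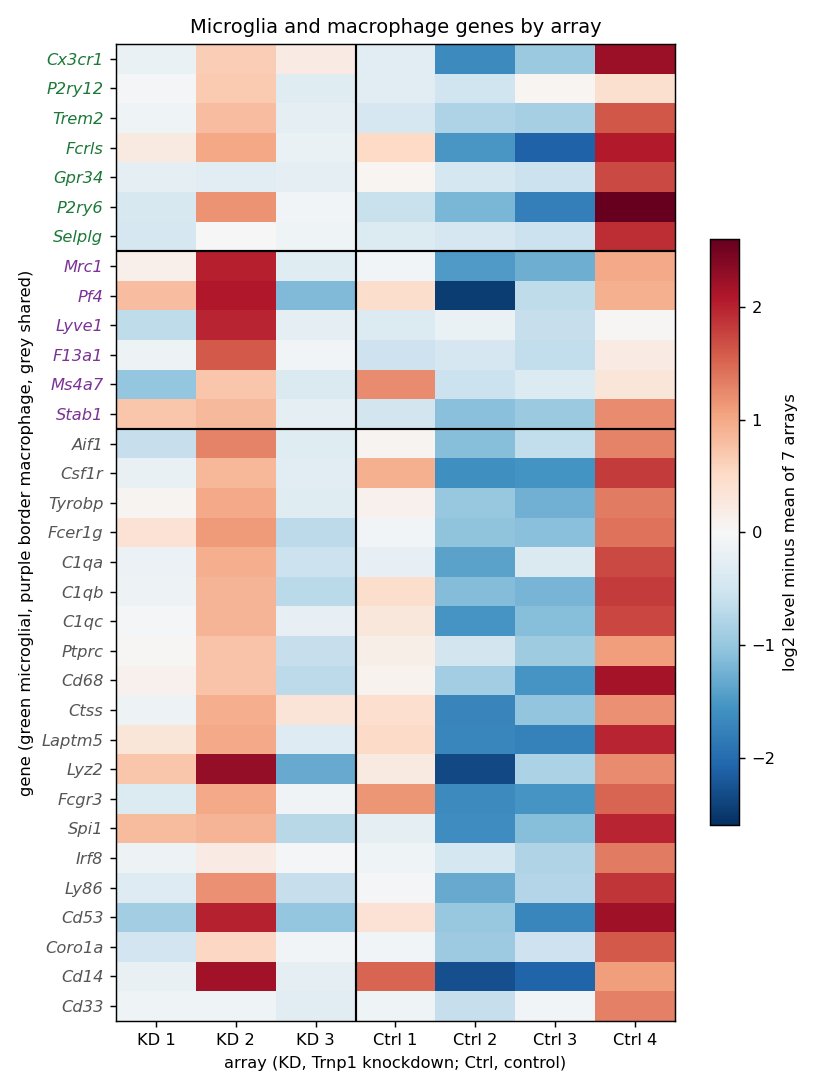
Log2 level minus the gene's mean over 7 arrays for the 33 genes (rows, with microglial genes above border macrophage and shared genes) in knockdown arrays (left) and control arrays (right). Control replicate 4 and knockdown replicate 2 are red in most rows, and control replicates 2 and 3 are blue in most rows.

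The spread within groups was far wider than for an ordinary gene. The median pooled SD within groups was 1.12 log2 units over the 33 genes and 0.23 over all genes. From the lowest to the highest array the median gene of the group spanned 8.14-fold (2.31-fold to 25.04-fold), where the median of all genes was 1.61-fold. A log2 difference between groups was accordingly known to within a median of ± 1.66 log2 units (from the estimate to either end of the 95% interval) for these genes, against ± 0.40 for all genes. Such spread was not particular to the 33 genes. The median pooled SD was 1.13 for endothelial markers, 1.05 for inflammatory genes and 1.80 for choroid plexus markers. In the remaining lists used below and in the neural markers it lay between 0.14 (lymphocyte markers) and 0.82 (phagocytosis, lysosome and axon tract microglia genes).

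Microglial and border macrophage genes did not peak in the same array. As a median over genes of the log2 level minus the gene's own mean over 7 arrays, microglial genes stood at -0.18, 0.68 and -0.17 in knockdown replicates 1 to 3, against -0.28, -0.80, -0.86 and 1.92 in control replicates 1 to 4. Border macrophage genes stood at -0.0022, 1.79 and -0.28 in the knockdown replicates, against -0.21, -0.82, -0.64 and 0.62 in the control replicates. Knockdown replicate 2 was thus relatively high in the 6 listed border macrophage genes, with the border median 1.11 above the microglial one. In control replicate 4 the border median minus the microglial one was -1.2997. Since young microglia also carry several of these genes, the medians do not name the cells. In the other 5 arrays the medians lay within 0.22 of each other. Gene by gene, knockdown replicate 2 minus control replicate 4 was negative for 6 of 7 microglial genes (median -1.59), with P2ry12 the exception at 0.26. It was positive for 5 of 6 border macrophage genes (median 1.09), with Stab1 the exception at -0.39. The 20 shared genes were lower in knockdown replicate 2 for 17 genes (median -0.72), the others being Cd14 (1.09), Lyz2 (1.06) and Aif1 (0.004). This sets 1 array of each group against the other, so it has no replicate check.

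**Figure D3:**
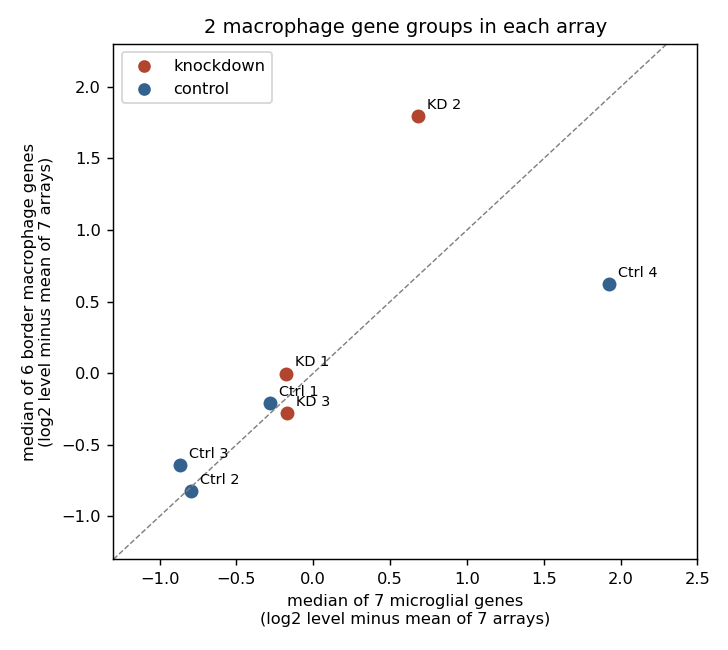
Median of the 7 microglial genes (x axis) and of the 6 border macrophage genes (y axis) in each array, both as log2 level minus the gene's mean over 7 arrays. The dashed line marks equal values: 5 arrays lie near it, knockdown replicate 2 lies above it and control replicate 4 below it.

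Knockdown of Trnp1 was not accompanied by a detectable change of these genes. By limma, 0 of the 33 genes had an adjusted p under 0.05 (0% of all genes tested did), and 0 of the 33 had an unadjusted p under 0.05, where 2.2% of all genes were higher and 3.61% lower at that level (5.81% in either direction). For 0 of the 33 genes did the knockdown and control arrays not overlap, where they did not for 2.59% of all genes as higher and 3.07% as lower. The log2 difference, knockdown minus control, was above 0 for 28 genes and below 0 for 5, with a median of 0.31, where 49.8% of all genes had a difference above 0 and the median over all genes was -0.001. Since the genes share the same high and low arrays, these signs are not independent. The median was 0.28 for microglial, 0.79 for border macrophage and 0.23 for shared genes, and no test of a difference between these was made.

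Among single genes F13a1 had the smallest p, with a difference of 0.81 (SE 0.44, 95% interval -0.23 to 1.85, limma unadjusted p = 0.11). Mrc1 differed by 1.07 (SE 0.75, 95% interval -0.69 to 2.83) and Pf4 by 1.00 (SE 0.98, 95% interval -1.298 to 3.305). For Csf1r the difference was 0.23 (SE 0.89, 95% interval -1.85 to 2.32), so that the knockdown level lay between 0.278 and 4.98 times the control level. The interval of Cx3cr1 (difference 0.39, SE 0.85) spanned 0.333 to 5.18 times the control level. P2ry12 was bounded most narrowly, between 0.699 and 1.85 times the control level. Intervals of this width do not show that the groups are alike.

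**Figure D4:**
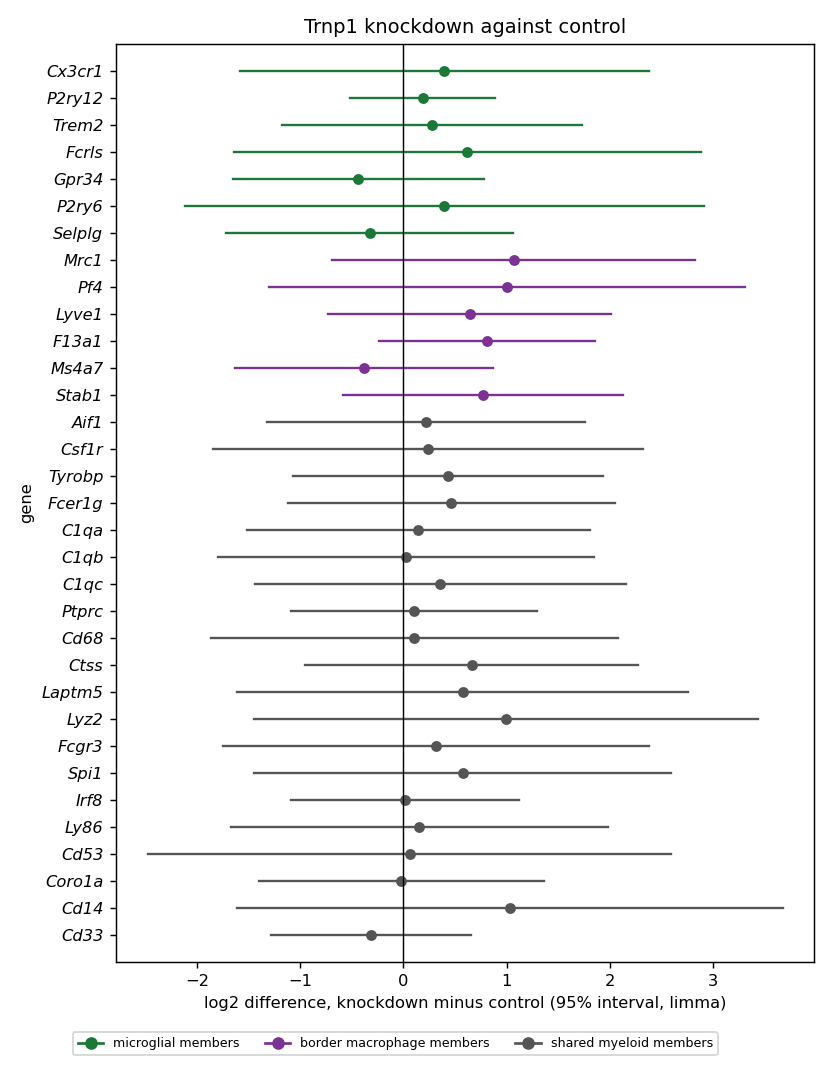
Log2 difference, knockdown minus control, for each of the 33 genes with limma's 95% interval (line), in green for microglial, purple for border macrophage and grey for shared genes. Every interval includes 0.

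The sign of the median rested on single arrays. The median over the 33 genes was -0.086 when knockdown replicate 2 was left out, -0.04 when control replicate 2 was, 0.038 when control replicate 3 was and 0.86 when control replicate 4 was. Without knockdown replicate 2 and control replicate 4 together, an alternative chosen after the values were seen, it was 0.499. The border macrophage median was 0.25 without knockdown replicate 2 and 1.14 without control replicate 4. Without control replicate 4, 5 genes had an unadjusted p under 0.05 by limma, all higher in knockdown samples, where 3% of all genes were. These were Stab1 (1.29), P2ry6 (1.41), Cx3cr1 (1.19), Spi1 (1.32) and Trem2 (0.86), and their adjusted p was 0.741 to 0.743. With the replicate number as a block, which leaves control replicate 4 without a partner, 6 genes had an unadjusted p under 0.05 by limma, these 5 and F13a1 (0.997), where 3.23% of all genes were higher. Without knockdown replicate 2 and control replicate 4 together, Stab1 (1.09), Trem2 (0.53) and F13a1 (0.43) had an unadjusted p under 0.05, where 4.52% of all genes were higher, and 0 of the 33 genes passed over all genes.

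The transcription factors of the macrophage programme were among the genes. Spi1, which encodes PU.1, had 7.38, 7.45 and 5.83 in knockdown samples, against 6.33, 4.94, 5.45 and 8.54 in control samples. Irf8, its partner in macrophage development, had 5.48, 5.83 and 5.56 in knockdown samples, against 5.50, 5.15, 4.82 and 6.95 in control samples. Both were lowest in control replicates 2 and 3 and highest in control replicate 4. Promoter sequences from RefSeq, 300 bases around each start site in GRCm38.p6, were found for 24 of the 33 genes (Gpr34, P2ry6, Selplg, Lyve1, Csf1r, Tyrobp, C1qa, Spi1 and Cd14 had no match). They were searched on both strands for GAGGAAGT, the core of the PU.1 motif, which 5 of the 24 genes held (20.8%, against 3.69% of all genes in the promoter table). The shorter ETS core GGAAGT, contained in it, was held by 15 of the 24 (62.5%, against 26.5%), and the ETS-IRF composite element, to which PU.1 binds with IRF factors, by Cd68 alone (4.17%, against 3.16%). The 5 promoters with the longer motif are printed 5′ to 3′ along the gene's strand, with that motif or its reverse complement in capitals. All 5 genes had knockdown replicate 2 and control replicate 4 as their highest arrays, as did 27 of the 33 genes (81.8%).
C1qc, chr4:136892865-136893164, minus strand: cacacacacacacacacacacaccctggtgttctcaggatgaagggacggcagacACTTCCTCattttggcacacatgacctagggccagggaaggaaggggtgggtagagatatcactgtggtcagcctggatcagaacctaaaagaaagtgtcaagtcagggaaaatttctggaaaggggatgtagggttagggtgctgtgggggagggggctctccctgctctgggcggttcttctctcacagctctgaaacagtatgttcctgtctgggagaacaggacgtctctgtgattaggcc
Cd53, chr3:106790100-106790399, minus strand: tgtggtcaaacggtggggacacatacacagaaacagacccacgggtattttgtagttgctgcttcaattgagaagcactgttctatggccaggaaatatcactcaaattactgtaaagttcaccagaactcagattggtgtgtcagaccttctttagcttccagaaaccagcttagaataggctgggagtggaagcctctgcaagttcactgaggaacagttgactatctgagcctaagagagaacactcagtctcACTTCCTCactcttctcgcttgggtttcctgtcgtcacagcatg
Ctss, chr3:95526536-95526835, plus strand: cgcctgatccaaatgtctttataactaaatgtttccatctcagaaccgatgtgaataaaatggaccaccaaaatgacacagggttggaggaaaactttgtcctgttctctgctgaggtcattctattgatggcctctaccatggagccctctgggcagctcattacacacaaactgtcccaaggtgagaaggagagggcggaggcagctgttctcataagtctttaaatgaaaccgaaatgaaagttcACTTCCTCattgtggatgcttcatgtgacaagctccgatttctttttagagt
F13a1, chr13:37049164-37049463, minus strand: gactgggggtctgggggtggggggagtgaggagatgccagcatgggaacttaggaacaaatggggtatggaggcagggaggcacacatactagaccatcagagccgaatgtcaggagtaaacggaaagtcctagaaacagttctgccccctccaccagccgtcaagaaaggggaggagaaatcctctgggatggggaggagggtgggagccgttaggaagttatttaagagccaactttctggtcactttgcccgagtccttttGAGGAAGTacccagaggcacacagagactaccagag
Pf4, chr5:90772185-90772484, plus strand: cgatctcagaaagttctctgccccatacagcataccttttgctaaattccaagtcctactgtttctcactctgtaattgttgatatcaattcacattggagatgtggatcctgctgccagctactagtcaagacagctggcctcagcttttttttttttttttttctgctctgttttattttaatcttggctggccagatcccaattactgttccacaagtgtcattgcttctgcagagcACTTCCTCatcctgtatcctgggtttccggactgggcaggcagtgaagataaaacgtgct

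In Pf4 the capitals end just before the start site and in Ctss they span it. In Cd53 and F13a1 they follow it, and in C1qc they lie farther upstream. A match of letters is a description and shows no binding, and the arrays hold no measure of binding.

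Other genes of the macrophage programme, from a separate list, followed the same arrays in part, and 36 of 45 had a mean above background (80%, against 67.6% of all genes). Control replicate 4 was the highest control for 38 of the 45 (84.4%, against 24.2% of all genes). Knockdown replicate 2 was the highest knockdown array for 28 (62.2%, against 32.9% of all genes). Of 45 measured genes 0 passed over all genes and 0 had an unadjusted p under 0.05, with 34 differences above 0 and a median of 0.14. The integrin gene Itgam (CD11b) had 6.16, 7.34 and 5.83 in knockdown samples, against 6.03, 5.22, 4.43 and 8.09 in control samples. Tmem119, a microglial surface protein, had 5.93, 6.18 and 5.37 in knockdown samples, against 5.62, 5.38, 5.22 and 7.14 in control samples. Both were highest in control replicate 4. The lowest p values of the list belonged to Clec7a, Ccr1 and Siglech (-0.62, SE 0.42). Clec7a and Ccr1 were below background in every array, and Siglech had its lowest value in knockdown replicate 2. Of 28 genes of phagocytosis, lysosomes and axon tract microglia 0 passed over all genes, with a median of 0.18. Gpnmb, a glycoprotein of lipid-laden macrophages, had the lowest p and a difference of 0.35 (limma unadjusted p = 0.0338), and its level of 3.62 to 4.00 in knockdown samples and 3.28 to 3.57 in control samples was near background. Over 18 genes of signals that feed and guide microglia the median difference was 0.042. The median deviations of the arrays lay between -0.22, in control replicate 2, and 0.31, in control replicate 4, which was the highest control for 10 of the 18 genes (55.6%, against 24.2% of all genes). The chemokine gene Ccl2, chosen after its values were seen, had 7.77, 8.85 and 6.93 in knockdown samples, against 8.05, 5.92, 5.18 and 8.47 in control samples. It was highest in knockdown replicate 2 and control replicate 4 and lowest in control replicates 2 and 3, as were most macrophage genes. Among the 18 genes, Cd47, whose protein restrains uptake by macrophages, differed by -0.42 (SE 0.19) by the brighter of its 2 probe sets. It was the 1 gene of the 18 that was lower without overlap of the groups, against 3.07% of all genes. Its highest knockdown and lowest control arrays were close, at 8.016 and 8.049. The microglial restraint ligand gene Cd200 differed by 0.83 (SE 0.39) and the chemokine gene Cxcl12 by -0.597 (SE 0.30), and 0 of the 18 passed over all genes.

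Inflammatory genes, like border macrophage genes, had their highest median deviation in knockdown replicate 2, a likeness that rests on 1 array. That array was the highest of all 7 for 11 of the 18 genes (61.1%, against 9.43% of all genes). Of 18 measured genes 0 passed over all genes, 16 had a difference above 0 and the median was 0.45. Their median deviation was 0.30, 1.28 and -0.74 in knockdown replicates 1 to 3, against 0.21, -0.92, -0.86 and 0.67 in control replicates 1 to 4, highest in knockdown replicate 2 as for border macrophage genes. The chemokine gene Ccl5 had 7.48, 8.22 and 5.78 in knockdown samples, against 5.30, 5.46, 5.43 and 5.56 in control samples. It was the 1 gene of the 18 that was higher without overlap of the groups, against 2.59% of all genes. Its difference was 1.72 (SE 0.51, limma unadjusted p = 0.0108), the lowest p of the list, but it did not pass over all genes. The acute phase gene Saa3 (2.49, SE 1.12) and the interferon-induced chemokine gene Cxcl10 (1.29, SE 1.11) were also highest in knockdown replicate 2.

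Markers of other cell types were also high in some of these arrays. Of 7 choroid plexus markers 6 were measured and 5 had a mean over the arrays above background (83.3%, against 67.6% of all genes). Of these, Otx2 and Clic6 stood above it only in knockdown replicate 2 and control replicate 4, so their means passed through these arrays. A summed signal adds the unlogged levels of a list's genes, so the brightest genes weigh most. For the choroid plexus markers it was 89.7 to 4315 in knockdown samples and 87.5 to 6985 in control samples, and the upper ends came mostly from Ttr. Ttr, the transthyretin gene of the choroid plexus, had 4.34, 11.98 and 4.20 in knockdown samples, against 4.05, 4.00, 9.86 and 12.55 in control samples. Otx2, a transcription factor of the same epithelium, had 3.27, 7.30 and 3.26 in knockdown samples, against 3.41, 3.70, 3.41 and 8.18 in control samples. Both genes, chosen after their values were seen, were highest in control replicate 4 and knockdown replicate 2, the arrays richest in macrophage transcripts, but Ttr was also high in control replicate 3, where macrophage genes were low. All 15 endothelial markers had a mean above background, although Tek and Abcb1a each stood above it in 3 arrays only. Their summed signal over the 15 genes was 1419 to 3997 in knockdown samples and 756 to 3093 in control samples. Their median deviation was 1.31, 0.51 and -0.31 in the knockdown replicates, against -0.84, -0.78, -0.90 and 1.09 in the control replicates, with knockdown replicate 1 highest. Of 9 measured erythroid markers 6 were above background (66.7%, near the 67.6% of all genes). The summed signal of the erythroid markers was 4518 to 7714 in knockdown samples and 2500 to 7771 in control samples, mostly from the globin genes Hbb-y and Hba-x. Mural and meningeal fibroblast markers had 10 of 15 above background, also 66.7%. Their summed signal was 301 to 780 in knockdown samples and 264 to 499 in control samples. The part of these cell types in the macrophage values was not tested.

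Most blood leukocyte markers had a mean level below background. Of 17 neutrophil, monocyte and mast cell markers 6 lay above it and of 14 lymphocyte markers 4 did, against 67.6% of all genes. Their median deviations lay between -0.06 and 0.03 and between -0.08 and 0.07 over the 7 arrays. Cd3e, a T cell receptor subunit gene, was among the lowest p values, with a difference of 0.29 (SE 0.19). With most markers at background, these medians cannot show whether such cells varied between arrays. Among the markers above it, chosen after their values were seen, Kit, a receptor gene of mast cells and progenitors, had 6.297, 5.78 and 6.84 in knockdown samples, against 6.46, 6.097, 7.18 and 7.24 in control samples. Csf3r, the receptor gene for the neutrophil growth factor G-CSF, had 3.91, 4.74 and 4.06 in knockdown samples, against 3.87, 3.89, 3.72 and 5.16 in control samples, highest in control replicate 4 and knockdown replicate 2. S100a8, a neutrophil protein gene whose mean lay below background, had 3.43, 3.01 and 3.205 in knockdown samples, against 5.55, 3.14, 4.46 and 3.67 in control samples. It was above background in control replicates 1 and 3 only. Prtn3, a neutrophil protease gene, was highest in knockdown replicate 1, at 5.48.

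**Figure D5:**
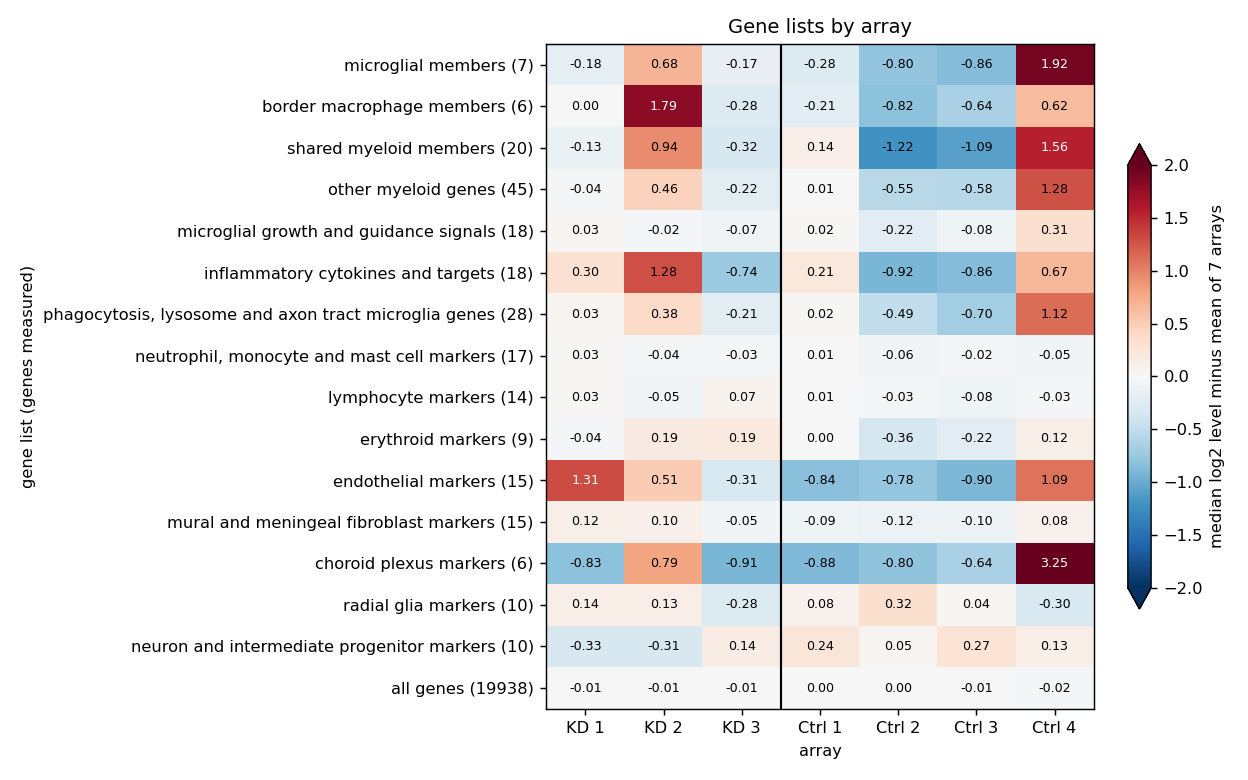
Median log2 level minus the gene's mean over 7 arrays for each gene list (rows, number of genes measured in parentheses) in knockdown arrays (left) and control arrays (right). The macrophage lists are highest in knockdown replicate 2 or control replicate 4, choroid plexus markers are at 3.25 in control replicate 4, and the leukocyte marker lists, most of whose genes are at background, lie near 0 in every array.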

How the data were processed

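The deposited values are log2 signals per probe set, which the submitters' processing notes credit to RMA and Expression Console 1.2. RMA is meant to equalise the arrays' distributions and shrinks differences of dim genes. The medians of the deposited arrays still ran from 4.398 to 4.6105. Per the labels' protocols, RNA was amplified before labelling, which can add spread between samples. The annotation names no genome build. Precision is set by the small number of arrays.

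Of 35556 probe sets, 21789 had 1 gene symbol, 1621 several and 12146 none, and symbols were updated through RefSeq (GRCm38.p6). The brightest probe set stood for each gene. limma 3.58.1 in R 4.3.3 was fitted to all 19938 genes (lmFit and eBayes, two-sided, no block), with Benjamini-Hochberg adjustment over all genes at 0.05. No filter on low values was applied. The fit was tested on simulated data. Array correlations were 0.937 to 0.976, and no arrays were identical.

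The members, gene lists and motifs were chosen with earlier results of these data known. Values of every array were given for genes picked by role. From the other myeloid, phagocytosis, signal, inflammatory and leukocyte lists up to 3 genes of lowest p were named. None was named by its p from the erythroid, endothelial, mural, choroid plexus, radial glia and neuron lists. Further genes were chosen after their values were seen. Protein sequences were not used here. Alternatives covered the prior, array weights, scaling, a filter, probe set averaging, a replicate block and arrays left out.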

Additional observations from a re-analysis of the deposited data

Results flagged for a closer look

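Selplg, the selectin ligand gene, had a log2 level of 7.39 in control replicate 4, far from the other controls at 5.11, 5.03 and 4.91. The gap to the nearest control was 91.8% of the group's range. Chance flags about 1 in 20 such groups, and 33 genes with Trnp1 were looked at.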

How the results depend on the processing

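The 33 genes stayed at 0 calls by limma at an adjusted p under 0.05 in every alternative run, as did all genes, whose lowest adjusted p was 0.168 (without knockdown replicate 2). At an unadjusted p under 0.05 the count was 0 of 33 except for 5 without control replicate 4, 6 with the replicate number as a block and 3 with both knockdown replicate 2 and control replicate 4 left out, all higher in knockdown samples. Under the block, 3.23% of all genes were higher at that level. Same-numbered samples did not deviate together (correlations over genes of 0.028, -0.051 and 0.072), and no knockdown sample correlated best with the control of its own number. The labels do not say whether a number marks a shared litter or day, and these correlations cannot settle it. With the block the median over the 33 genes was 0.86, the same as without control replicate 4, an array the block removes from the comparison. Of 561 values of single genes under the alternatives, 63 changed sign, in 21 genes, none of them called. With 1 array left out the lowest and highest log2 differences of these genes were Aif1 -0.37 to 0.68, C1qa -0.299 to 0.74, C1qb -0.41 to 0.64, C1qc -0.11 to 0.99, Cd33 -0.56 to 0.082, Cd53 -0.93 to 0.8003, Cd68 -0.39 to 0.84, Coro1a -0.34 to 0.51, Csf1r -0.26 to 0.87, Cx3cr1 -0.1 to 1.19, Fcgr3 -0.196 to 0.86, Gpr34 -0.69 to 0.069, Irf8 -0.24 to 0.47, Ly86 -0.397 to 0.79, Lyve1 -0.17 to 1.15, Ms4a7 -0.85 to 0.012, P2ry12 -0.102 to 0.397, P2ry6 -0.14 to 1.41, Ptprc -0.24 to 0.48, Selplg -0.56 to 0.27, Trem2 -0.045 to 0.86. The other alternatives with a changed sign were as follows. With equal array medians the differences were C1qb -0.081, Cd53 -0.047, Cd68 -0.00025, Irf8 -0.089, Ptprc -0.0036. With the replicate block they were Cd33 0.082, Coro1a 0.51, Gpr34 0.069, Selplg 0.27. Without knockdown replicate 2 and control replicate 4 together they were Cd33 0.051, Cd53 -0.19, Coro1a 0.23, Gpr34 0.083, Lyve1 -0.069, Selplg 0.17. With array weights that of Coro1a was 0.24. With further quantile normalization the differences were Coro1a 0.0061, Irf8 -0.052, Ptprc -0.00051. With cyclic loess normalization that of Coro1a was 0.061. With array weights the median over the 33 genes was 0.76. With equal array medians the median of all genes was -0.107, against -0.001 otherwise, that of the 33 genes was 0.21, and 183 genes were higher and 1507 lower at an unadjusted p under 0.05 by limma, against 439 and 719 otherwise. Trnp1 stayed between -0.51 and -0.31. Above the 90th and 99th percentiles of olfactory receptor genes lay 32 and 29 of the 33 genes. RMA values of dim genes such as Gpr34 and P2ry12 understate differences.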

Other observations

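Some cytokine genes that macrophages make were bright in the same arrays as the macrophage genes, and were picked for this after their values were seen. Others of the inflammatory list did not show this: Il6 and Il10 stayed below background in every array, and Cxcl1 lay between 4.705 and 5.165. Tnf, the tumour necrosis factor gene, had log2 levels of 6.80, 9.46 and 5.07 in knockdown samples, against 7.74, 4.66, 4.80 and 8.72 in control samples. The chemokine gene Ccl3 had 8.89, 11.14 and 8.65 in knockdown samples, against 10.56, 7.61, 8.76 and 11.38 in control samples, and its difference was -0.019 (SE 1.00). The interleukin gene Il1b had 5.11, 6.90 and 5.29 in knockdown samples, against 6.35, 4.77, 4.28 and 6.45 in control samples. For Ccl3, control replicate 4 and knockdown replicate 2 were the brightest arrays, whereas Tnf and Il1b were highest in knockdown replicate 2.

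Apoe, an apolipoprotein gene of microglia and glia, had 10.42, 11.14 and 10.18 in knockdown samples, against 10.47, 8.60, 8.93 and 11.43 in control samples, with a difference of 0.73 (SE 0.68). Sall1, a transcription factor that marks microglia in the adult brain and neural progenitors in the embryo, lay between 8.17 and 8.24 in knockdown samples and between 7.97 and 8.28 in control samples, without the swing of the macrophage genes. Cd163, a scavenger receptor gene of border macrophages, stayed at or below background in all arrays, at 3.10 to 3.67 in knockdown samples and 3.11 to 3.22 in control samples. Tgfb1, a growth factor gene that microglia need, had 7.09, 6.39 and 6.36 in knockdown samples, against 5.99, 5.32, 4.79 and 7.80 in control samples, and its difference was 0.64 (SE 0.67).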
